A study of Homo sapiens with 87 samples.

Results

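HAP1 cells that lacked ARID2 were compared with and without an added knockdown of SMARCA4, in 2 libraries with the SMARCA4 knockdown and 2 with a control knockdown, 4 of the 87 libraries of the series. The libraries were chosen by their labels: an ARID2 knockout (KO), with SMARCA4 or a control as the target of the knockdown, replicates 1 and 2 of each. HAP1, an established human cell line with a nearly haploid genome, goes back to chronic myeloid leukaemia cells. The labels give the knockout only by its gene, with no clone or allele, and their fields differ on the kind of reagent behind the knockdown, which is therefore not named. The labels describe stranded libraries from poly-A RNA, sequenced as single reads of 50 bases. Further groups of 2 libraries in the same table gave the setting: a SMARCA4 knockout with an ARID2 knockdown, a SMARCA4 knockout with the control knockdown, wild type (WT) with knockdown of both SMARCA4 and ARID2, and WT with the control knockdown. A SMARCA4 knockdown alone in WT cells was not analysed here. The labels do not say that replicates came from separate cultures, so p-values measure only the spread between these libraries.

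SMARCA4 is the main ATPase of the BAF (SWI/SNF) chromatin remodelling complexes, which slide and evict nucleosomes at promoters and enhancers; SMARCA2 is its paralogue. ARID2 is a subunit of PBAF, the form of the complex that also holds PBRM1 and BRD7, while ARID1A or ARID1B takes its place in canonical BAF. Loss of SMARCA4 therefore removes the main ATPase from both forms, whereas loss of ARID2 affects PBAF. The series, by its title, looked for pairs of BAF subunits whose joint loss is lethal, and the knockdown in ARID2 KO cells asks what the joint loss does to the transcriptome.

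Total counts were 10786660 and 11950602 in the SMARCA4 knockdown libraries and 9144150 and 11245314 in the control knockdown libraries, the lowest of the table, whose other libraries reached 19789622. Levels are given as CPM, a gene's count scaled to a library total of 1000000 counts, in the order replicate 1 and replicate 2. The 2 knockdown libraries differed from each other more than any other pair of replicates in the table, with a chi-square per degree of freedom of 40.95, against 12.18 for the control pair. Of 12 blood lineage markers, 7 stayed under 1 CPM in all 4 libraries, among them GATA1, SPI1 and PTPRC at the lowest deposited value, while GATA2 lay between 31.3 and 39.6 CPM. Of 14 markers of A549, the other line named in the growth protocol, 12 stayed under 1 CPM in all 4 libraries.

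The knockdown reached its target. SMARCA4 stood at 10.7 and 28.3 CPM with the SMARCA4 knockdown, against 284 and 337 CPM with the control knockdown. Both knockdown libraries lay far below both controls, although replicate 1 kept 3.43% of the control mean and replicate 2 kept 9.10% (log2 fold change -4.04, SE 0.517, adjusted p = 0.00365, edgeR's quasi-likelihood test with Benjamini-Hochberg adjustment over 14601 genes). The residual mRNA level was close to that of the SMARCA4 KO with control knockdown, at 26.7 and 23.4 CPM. It was below that of WT cells with both knockdowns, at 43.1 and 129.5 CPM, where WT with the control knockdown had 297 and 317 CPM. These mRNA levels do not measure the protein left in a knockout or after a knockdown, so similar levels do not mean a similar loss of SMARCA4.

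The level of ARID2 mRNA is no check of the knockout, because a frameshift mutation need not remove the transcript. It stood at 48.3 and 23.6 CPM with the SMARCA4 knockdown, against 29.6 and 29.8 CPM with the control knockdown, and at 45.1 and 30.9 CPM in WT with the control knockdown. The knockdown and control libraries overlapped (log2 fold change 0.21, SE 0.319, adjusted p = 0.756), and the knockdown pair alone differed by more than the control means of ARID2 KO and WT did. In the separate table of knockout clones ARID2 was at 28.7 ± 1.34 CPM in ARID2 KO and 46.1 ± 5.85 CPM in WT (SD, n = 3 each). SMARCA2, the other ATPase of the complex, had 23.6 and 32.1 CPM with the SMARCA4 knockdown, against 18.04 and 27.4 CPM with the control knockdown. Its groups overlapped and it did not pass the test (log2 fold change 0.24, SE 0.344, adjusted p = 0.734).

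**Figure D1:**
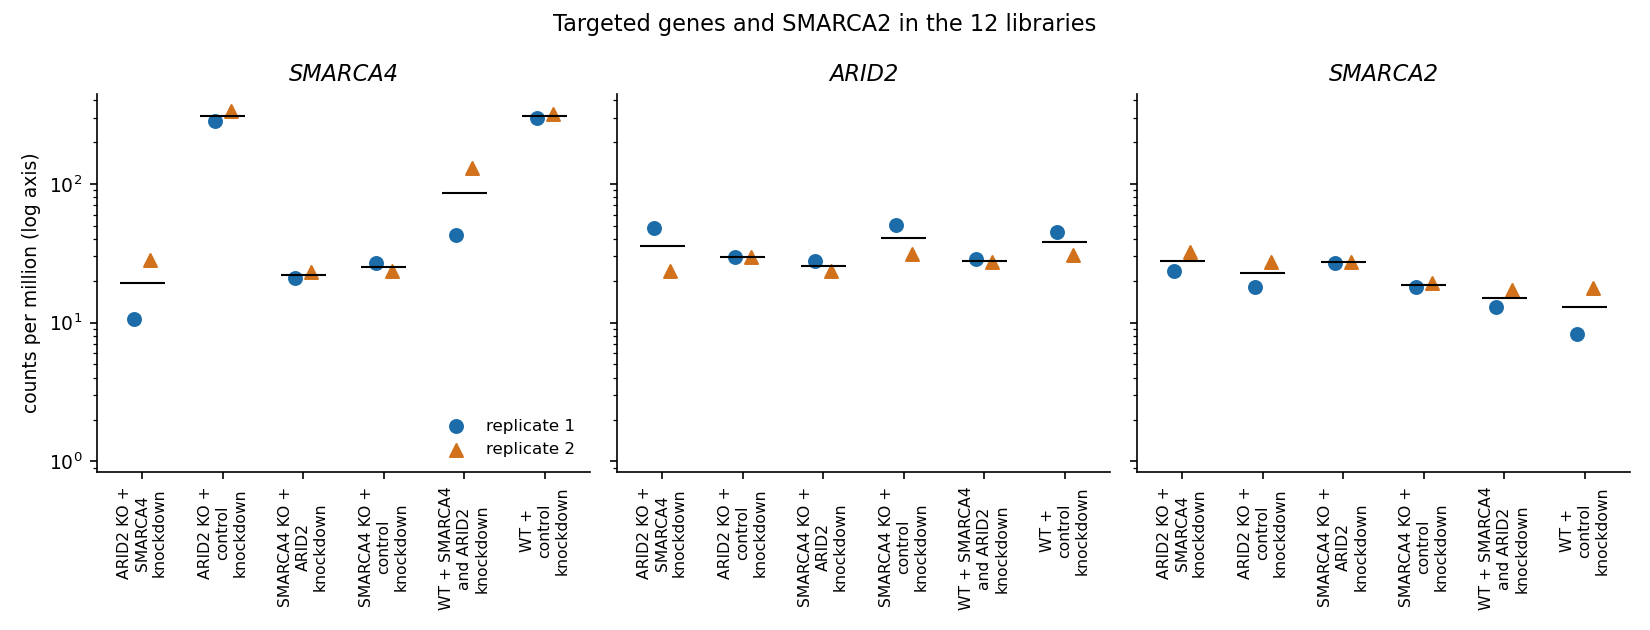
CPM (log axis) of SMARCA4, ARID2 and SMARCA2 in the 12 libraries, with circles for replicate 1, triangles for replicate 2 and a bar for the mean of each group of 2. SMARCA4 is at 10.7 and 28.3 CPM with the knockdown in ARID2 KO, against 284 and 337 CPM with the control knockdown; ARID2 and SMARCA2 overlap between these groups.

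Of 31 listed BAF subunits 30 were tested, and besides SMARCA4 only GLTSCR1L was called, with an adjusted p of at most 0.05 and a change of at least 1 on the log2 scale. GLTSCR1L (BICRAL), a subunit of the non-canonical form that contains BRD9, had 27.4 and 23.6 CPM with the SMARCA4 knockdown, against 6.89 and 6.94 CPM with the control knockdown. It was high in both knockdown libraries and nearly equal in both controls (log2 fold change 1.82, SE 0.249, adjusted p = 0.00472); its call was lost without control replicate 2. Smaller changes passed the adjusted p but not the fold in DPF2, a PHD-finger subunit (0.73, adjusted p = 0.0424), in BCL7C (0.77, adjusted p = 0.0407) and, downwards, in SS18 (-0.56, adjusted p = 0.0464). BCL11B, BCL11A and DPF1, subunits of more tissue-restricted forms of the complex, did not pass, at -1.10 (adjusted p = 0.081), -0.91 (adjusted p = 0.0918) and -0.80 (adjusted p = 0.169), but without knockdown replicate 2 BCL11B and BCL7B were called, both lower. The PBAF partners of ARID2 did not pass, with log2 fold changes of 0.18 for PBRM1, -0.29 for BRD7 and -0.32 for PHF10.

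Over all 14601 genes tested, 248 rose (1.7%) and 173 fell (1.18%) with the SMARCA4 knockdown, at a median log2 fold change of -0.005. With no fold threshold the counts were 355 and 305. Among the 421 called genes 91.1% of those that rose and 95.4% of those that fell are protein-coding, as are 89.6% of all tested. In bulk RNA, fewer cells with a transcript and less of it per cell cannot be told apart.

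How many genes passed depended on single libraries, with the filter on low counts set anew each time. Without knockdown replicate 1 the counts were 51 up and 46 down, without knockdown replicate 2 they were 522 and 342 (506 and 342 among the 14601 genes tested with all libraries), without control replicate 1 they were 30 and 60, and without control replicate 2 they were 23 and 40. Of the 248 genes that rose, 212 (85.5%) were higher in knockdown replicate 1 than in replicate 2, as were 56.1% of all genes tested. Of the 173 that fell, 69 (39.9%) were higher in replicate 1. Replicate 1 is also the library with less SMARCA4 left, and the part of that difference in these counts was not tested. The called genes of the 2 groups did not overlap between libraries, as was the case for 48.8% of all genes tested.

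**Figure D2:**
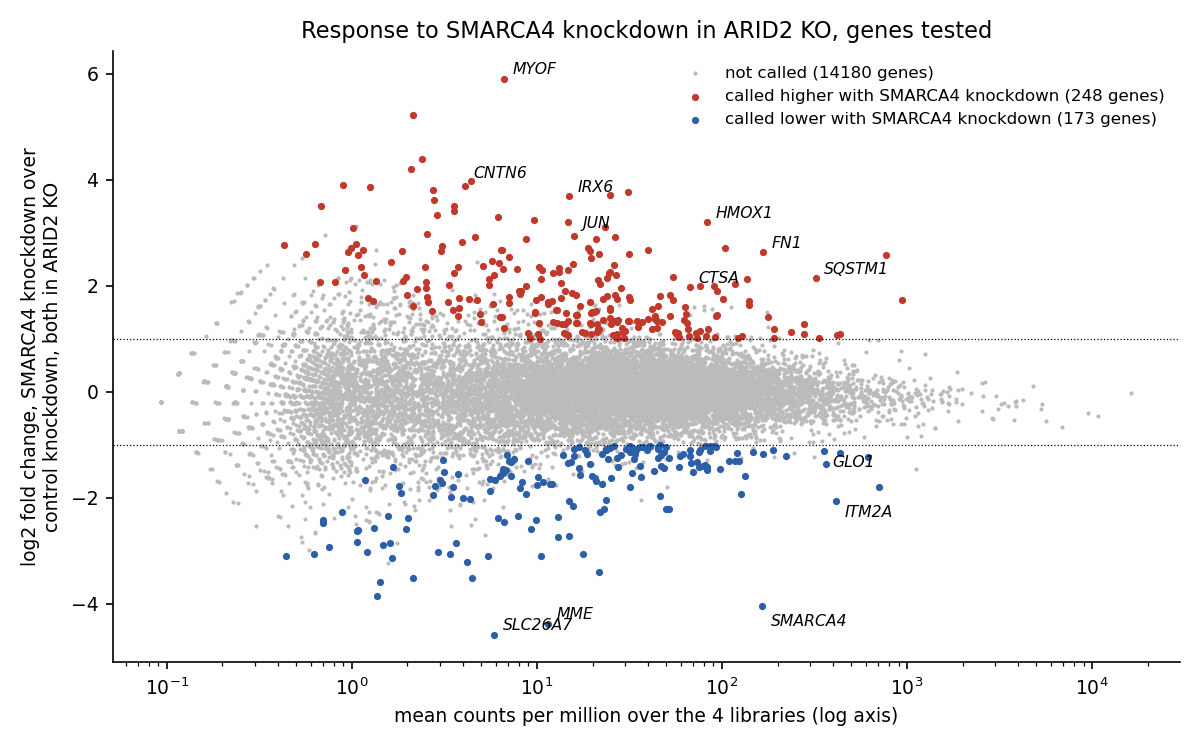
Each point is 1 of the 14601 genes tested, with its mean level over the 4 libraries (CPM, log axis) against its log2 fold change, SMARCA4 knockdown over control knockdown in ARID2 KO; dotted lines mark a change of 1 in either direction. The 248 called genes that rose and the 173 that fell lie at all levels, with SMARCA4 among the strongest falls at -4.04.

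A core of 14 genes that rose and 28 that fell was called whichever of the 4 libraries was left out; the members of this core were singled out after their values were seen. CNTN6, a contactin of neural cell adhesion, had 8.16 and 7.20 CPM with the SMARCA4 knockdown, against 0.547 and 0.445 CPM with the control knockdown (log2 fold change 3.88, SE 0.341, adjusted p = 0.000925). IRX6, an Iroquois homeobox factor, had 26.0 and 29.6 CPM with the SMARCA4 knockdown, against 2.08 and 2.04 CPM with the control knockdown (log2 fold change 3.69, SE 0.446, adjusted p = 0.00312). RFX4, a transcription factor of the RFX family, had 61.2 and 33.2 CPM with the SMARCA4 knockdown, against 7.44 and 4.54 CPM with the control knockdown (log2 fold change 2.92, SE 0.344, adjusted p = 0.00312). In each, both knockdown libraries lay several-fold above both controls, and the replicates of CNTN6 and IRX6 were close to each other. The control libraries held only 5 counts each of CNTN6. The ratio of its summed counts, scaled by the summed library totals, was 15.6 with an exact 95% counting interval from 8.28 to 33.1. The lowest deposited value was 1, and whether 1 had been added to each count is not given in the sources used here. This ratio and interval, and those given below, take the deposited values as counts and would change with such an offset.

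Core genes that encode secreted and cell-surface proteins rose as well, measured as mRNA. GDF3, a TGF-beta family ligand expressed in pluripotent cells, had 9.92 and 11.1 CPM with the SMARCA4 knockdown, against 2.41 and 1.42 CPM with the control knockdown (log2 fold change 2.42, SE 0.307, adjusted p = 0.00365). CLU, which encodes the extracellular chaperone clusterin, had 139 and 106 CPM with the SMARCA4 knockdown, against 23.7 and 35.2 CPM with the control knockdown (log2 fold change 1.99, SE 0.233, adjusted p = 0.00312). PROCR, the receptor of protein C, had 50.8 and 32.5 CPM with the SMARCA4 knockdown, against 11.8 and 10.6 CPM with the control knockdown (log2 fold change 1.83, SE 0.223, adjusted p = 0.00312). The groups were apart in all 3 genes, with knockdown replicate 1 the higher of its pair for CLU and PROCR. SLC12A3, the thiazide-sensitive sodium chloride cotransporter, stood at 7.79 and 6.19 against 0.984 and 0.889 CPM (log2 fold change 2.83), and SLC16A10, an aromatic amino acid transporter, at 60.5 and 65.7 against 22.4 and 24.5 CPM (1.37). The rest of the rising core was JUN, HIST1H4H, HIST1H1C and CTSA, described with their lists, SYPL2 (1.73) and NSG1 (1.37).

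The falling core began with genes of membrane transport and peptide processing. SLC26A7, an anion exchanger, had 0.278 and 0.669 CPM with the SMARCA4 knockdown, against 11.3 and 11.4 CPM with the control knockdown (log2 fold change -4.58, SE 0.503, adjusted p = 0.00312). MME, the cell-surface peptidase neprilysin, had 0.278 and 1.84 CPM with the SMARCA4 knockdown, against 24.9 and 19.0 CPM with the control knockdown (log2 fold change -4.38, SE 0.624, adjusted p = 0.00508). KCNK2, a two-pore-domain potassium channel, had 6.12 and 9.46 CPM with the SMARCA4 knockdown, against 33.1 and 39.3 CPM with the control knockdown (log2 fold change -2.27, SE 0.314, adjusted p = 0.00472). SLC26A7 and MME were left at or below 1.84 CPM, while KCNK2 remained clearly expressed.

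Neural and signalling genes followed. GRIK2, a kainate receptor subunit, had 1.02 and 0.669 CPM with the SMARCA4 knockdown, against 6.78 and 8.36 CPM with the control knockdown (log2 fold change -3.22, SE 0.416, adjusted p = 0.00365). FZD4, a WNT receptor, had 21.8 and 18.7 CPM with the SMARCA4 knockdown, against 54.1 and 49.1 CPM with the control knockdown (log2 fold change -1.41, SE 0.183, adjusted p = 0.00365). Both knockdown libraries lay below both controls in each gene. GNG2, a G protein gamma subunit, stood at 2.04 and 2.18 against 12.2 and 10.1 CPM (-2.45), the zinc finger gene ZNF385B at 2.60 and 5.10 against 34.9 and 44.2 CPM (-3.40) and CLDN1, a tight junction claudin, at 4.26 and 3.77 against 29.4 and 21.9 CPM (-2.73).

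Genes expressed at high levels were also in the falling core. ITM2A, an integral membrane protein gene, had 183 and 150.2 CPM with the SMARCA4 knockdown, against 658 and 668 CPM with the control knockdown (log2 fold change -2.05, SE 0.17, adjusted p = 0.000925). COL2A1, the collagen of cartilage, had 195 and 224 CPM with the SMARCA4 knockdown, against 486 and 556 CPM with the control knockdown (log2 fold change -1.37, SE 0.182, adjusted p = 0.00391). GLO1, the glyoxalase that clears methylglyoxal, had 223 and 239 CPM with the SMARCA4 knockdown, against 489 and 474 CPM with the control knockdown (log2 fold change -1.11, SE 0.119, adjusted p = 0.00312). Replicates of a group were close in these 3 genes, and the gap between groups was several times the gap within them. H6PD, a hexose-6-phosphate dehydrogenase of the endoplasmic reticulum, stood at 17.5 and 21.4 against 75.8 and 71.2 CPM (-1.97), MMD at 19.0 and 19.0 against 78.8 and 89.9 CPM (-2.21), and CDCA7, a MYC-induced gene of dividing cells, at 49.6 and 56.7 against 131 and 152 CPM (-1.46).

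Other strong changes were far larger in replicate 1 of the knockdown. MYOF, which encodes the membrane repair protein myoferlin, had 25.5 and 0.753 CPM with the SMARCA4 knockdown, against 0.219 and 0.178 CPM with the control knockdown. Replicate 1 alone was high, so the fold is poorly known: the control libraries held 2 counts each, and the ratio of summed counts, scaled by the summed library totals, was 63.7 with an exact 95% counting interval from 24.6 to 235 (log2 fold change 5.91, SE 1.40, adjusted p = 0.0399). HMOX1, the haem oxygenase that degrades haem, had 249.5 and 53.3 CPM with the SMARCA4 knockdown, against 15.1 and 16.2 CPM with the control knockdown (log2 fold change 3.19, SE 0.53, adjusted p = 0.00956). LIMCH1, an actomyosin regulator, had 72.7 and 20.3 CPM with the SMARCA4 knockdown, against 3.61 and 3.11 CPM with the control knockdown (log2 fold change 3.72, SE 0.663, adjusted p = 0.0132), and EMP1, an epithelial membrane protein, had 14.4 and 2.34 CPM with the SMARCA4 knockdown, against 0.547 and 0.445 CPM with the control knockdown (log2 fold change 3.98, SE 0.908, adjusted p = 0.0356). In all 4 genes replicate 2 of the knockdown was also above both controls, but several times below replicate 1. EMP1 had 5 counts in each control library, a ratio of 16.4, reckoned as for MYOF, with a counting interval from 8.72 to 34.8. The pseudogene TSSC2 had the same pattern, at 99.6 and 16.6 against 4.37 and 3.65 CPM, and how reads of its related copies were counted is not given in the sources used here. MYOF, EMP1 and LIMCH1 lost their call without knockdown replicate 1 or either control library, and HMOX1 and TSSC2 without either control library.

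**Figure D3:**
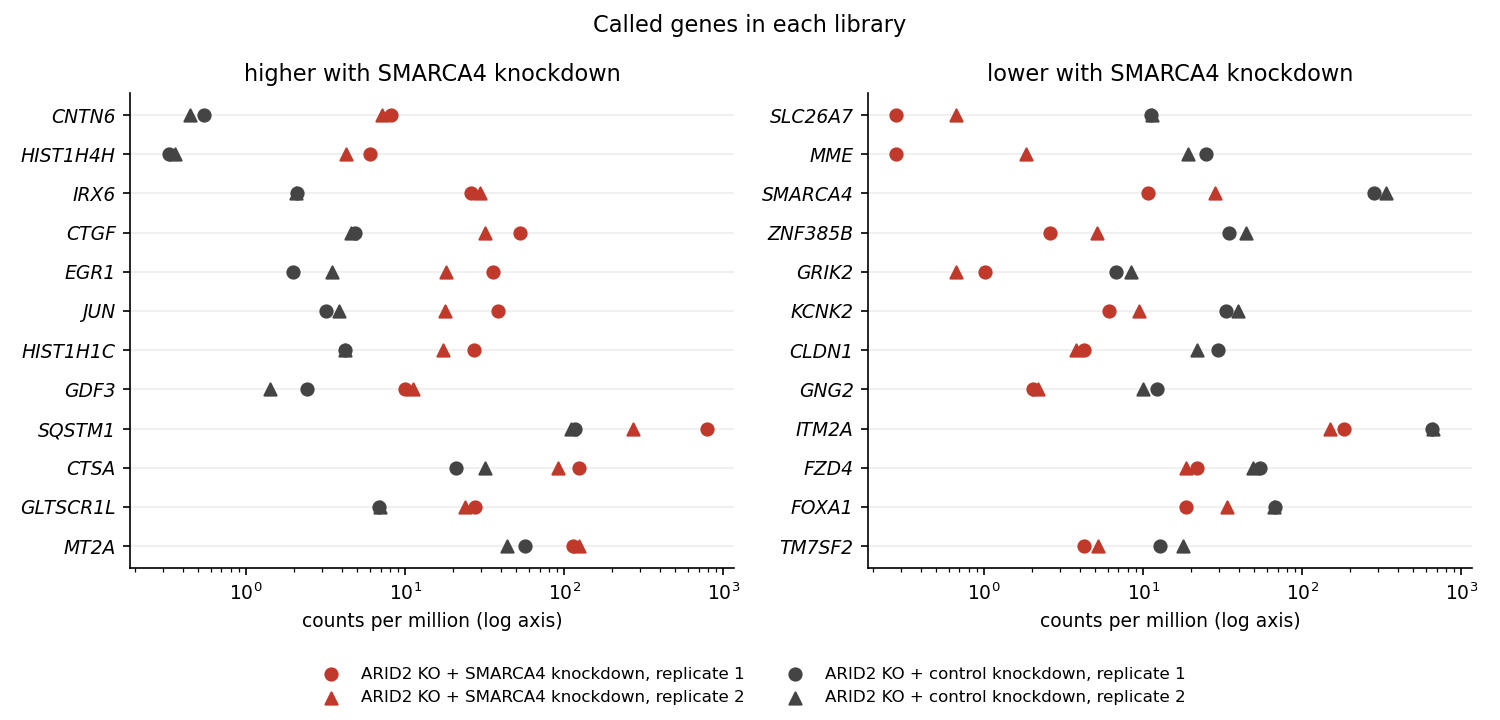
CPM (log axis) of 12 called genes that rose and 12 that fell, in the SMARCA4 knockdown libraries (red) and the control knockdown libraries (grey) of ARID2 KO, with circles for replicate 1 and triangles for replicate 2. Red and grey points do not overlap in any gene shown; SQSTM1 reaches 786 CPM in knockdown replicate 1 and 272 CPM in replicate 2.

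Lists of genes of known function are described by their counts, and the share of all tested genes called was 1.7% up and 1.18% down. YAP and its partner TAZ (WWTR1) are co-activators of the Hippo pathway that act through TEAD factors on genes of growth, matrix and cytoskeleton. Of 21 tested YAP target genes 7 rose and none fell, with a median log2 fold change of 0.53. CTGF (CCN2), a matricellular growth factor, had 52.4 and 32.0 CPM with the SMARCA4 knockdown, against 4.81 and 4.54 CPM with the control knockdown (log2 fold change 3.11, SE 0.427, adjusted p = 0.00472). CYR61 (CCN1), of the same family, had 46.0 and 21.2 CPM with the SMARCA4 knockdown, against 6.01 and 5.07 CPM with the control knockdown (log2 fold change 2.53, SE 0.451, adjusted p = 0.0131). Both knockdown libraries were high in both genes, with replicate 1 the higher. F3, the coagulation initiator tissue factor, had 16.5 and 5.86 against 1.20 and 2.04 CPM (2.68). AMOTL2, a Hippo pathway scaffold, had 205 and 85.9 against 43.9 and 25.9 CPM (1.99), and the kinase gene NUAK2 had 21.9 and 13.5 against 6.45 and 4.36 CPM (1.65). ANKRD1, a cardiac ankyrin repeat gene, reached 7.88 and 1.25 CPM against 3 and 1 counts in the control libraries, a ratio of 22.4, reckoned in the same way, with a counting interval from 8.49 to 83.9. ANKRD1 lost its call when 1 was subtracted from every value. MYOF, given above, also belongs to the list. WWTR1, which is not on the list, fell, at 58.1 and 58.8 against 107 and 121 CPM (-1.02). Without knockdown replicate 1 or without control replicate 1 only CTGF of the list was called, and without control replicate 2 none was.

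The stretches of 250 bases before the starts of CTGF, ANKRD1 and F3 are shown as examples of called YAP targets with TEAD or AP-1 motifs there (RefSeq, GRCh38.p14; chr6:131951373-131951622, minus strand; chr10:90921088-90921337, minus strand; chr1:94541760-94542009, minus strand). Capitals mark matches on either strand. The motif of TEAD factors searched for was GGAATG. That of AP-1, the dimer of JUN and FOS proteins, was TGANTCA, and a TATA box was read as TATAAA.
CTGF: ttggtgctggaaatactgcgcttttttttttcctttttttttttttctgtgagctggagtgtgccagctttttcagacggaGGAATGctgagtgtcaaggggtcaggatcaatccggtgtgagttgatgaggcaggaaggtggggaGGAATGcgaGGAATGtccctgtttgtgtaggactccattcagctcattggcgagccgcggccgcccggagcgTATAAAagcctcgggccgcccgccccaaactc
ANKRD1: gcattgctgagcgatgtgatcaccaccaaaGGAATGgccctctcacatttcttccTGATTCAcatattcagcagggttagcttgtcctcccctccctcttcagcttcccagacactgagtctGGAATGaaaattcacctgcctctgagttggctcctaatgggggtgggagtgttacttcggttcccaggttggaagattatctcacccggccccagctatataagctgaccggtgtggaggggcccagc
F3: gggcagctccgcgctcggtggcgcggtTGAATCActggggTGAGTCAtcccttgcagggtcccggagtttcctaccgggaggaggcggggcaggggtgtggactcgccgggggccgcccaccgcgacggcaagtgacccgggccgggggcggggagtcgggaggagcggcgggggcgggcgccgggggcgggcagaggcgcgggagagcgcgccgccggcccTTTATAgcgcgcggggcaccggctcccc
GGAATG lay 169, 104 and 95 bases before the start of CTGF and 220 and 128 bases before that of ANKRD1, counted to the first base of the match. TGANTCA lay 195 bases before the start of ANKRD1 and 223 and 210 bases before that of F3. In this window GGAATG was found in 6 of 16 YAP target promoters, those of the called CTGF, ANKRD1 and NUAK2 and those of PTPN14 (0.53), FOXF2 (-0.59) and TGFB2 (-1.62), which did not pass. It was also found in 11.9% of 194 promoters of genes that rose, in 12.6% of 127 of genes that fell and in 8.95% of 10795 promoters of genes tested. TGANTCA was found in 7.22% of promoters of genes that rose, 7.09% of genes that fell and 3.71% of genes tested. A match is a description of the letters, not a binding site.

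Immediate early genes are switched on within minutes of growth factor or stress signals. Of 26 tested 6 rose and none fell, with a median of 0.32. JUN, a subunit of AP-1, had 38.6 and 17.7 CPM with the SMARCA4 knockdown, against 3.17 and 3.82 CPM with the control knockdown (log2 fold change 2.93, SE 0.353, adjusted p = 0.00312). EGR1, a zinc finger factor, had 35.5 and 17.99 CPM with the SMARCA4 knockdown, against 1.97 and 3.47 CPM with the control knockdown (log2 fold change 3.21, SE 0.454, adjusted p = 0.00489). FOSL2, a FOS-family partner of JUN, had 32.3 and 11.5 CPM with the SMARCA4 knockdown, against 4.16 and 5.87 CPM with the control knockdown (log2 fold change 2.04, SE 0.459, adjusted p = 0.0342). The knockdown libraries were above both controls in the 3 genes, and replicate 1 was the higher of the pair. KLF10 (1.95), KLF2 (1.77) and EGR3 (2.58, from 3 counts in each control library) were the other called members. EGR3 lost its call when 1 was subtracted from every value. FOS, at 1.39 and 0.586 against 0.219 and 0.267 CPM, was near the lowest levels and did not pass (adjusted p = 0.146). JUN was called whichever library was left out; without knockdown replicate 1 or control replicate 2 only EGR1 and JUN were called, and without control replicate 1 only JUN.

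TGF-beta and BMP ligands signal through SMAD factors, whose direct targets include feedback inhibitors and the ID genes. Of 25 tested response genes 5 rose and none fell, with a median of 0.76, and CTGF is counted here too. ID2 and ID3 encode inhibitors of basic helix-loop-helix factors. ID2 had 32.5 and 16.9 CPM with the SMARCA4 knockdown, against 4.48 and 5.07 CPM with the control knockdown (log2 fold change 2.30, SE 0.365, adjusted p = 0.00844), and ID3 had 174 and 103 CPM with the SMARCA4 knockdown, against 54.5 and 43.1 CPM with the control knockdown (log2 fold change 1.44, SE 0.268, adjusted p = 0.0164). SMAD7, the inhibitory SMAD, had 26.5 and 20.8 against 10.4 and 8.18 CPM (1.29, adjusted p = 0.0469). ID1, at 47.4 and 37.8 against 17.5 and 9.07 CPM (1.63, adjusted p = 0.0665), and SMAD6, at 9.46 and 5.94 against 4.26 and 2.94 CPM (1.04, adjusted p = 0.161), did not overlap between groups and did not pass. The only call left without knockdown replicate 1 or control replicate 1 was CTGF, and none was left without control replicate 2.

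Extracellular matrix genes were called in both directions: of 35 tested 5 rose and 1 fell, with a median of -0.08. FN1, which encodes fibronectin, had 413 and 167 CPM with the SMARCA4 knockdown, against 47.5 and 41.3 CPM with the control knockdown (log2 fold change 2.64, SE 0.562, adjusted p = 0.0283). LAMC1, a laminin chain, had 741 and 455 CPM with the SMARCA4 knockdown, against 257 and 284 CPM with the control knockdown (log2 fold change 1.08, SE 0.187, adjusted p = 0.0115). AGRN, the heparan sulphate proteoglycan agrin, had 115 and 132 CPM with the SMARCA4 knockdown, against 265 and 244 CPM with the control knockdown (log2 fold change -1.10, SE 0.143, adjusted p = 0.00365) and was the one that fell. Knockdown replicate 1 was well above replicate 2 in FN1 and LAMC1, while AGRN was similar within each group. SPARC (2.14), the collagen cross-linking enzyme LOX (1.75) and LAMB1 (1.72) rose too. No member was called without knockdown replicate 1, only AGRN without control replicate 1, and LAMB1 and AGRN without control replicate 2. Of 11 fibroblast markers 8 stayed under 1 CPM in all 4 libraries, and their summed level was 114 and 126 CPM with the SMARCA4 knockdown, against 115.5 and 130.3 CPM with the control knockdown.

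Histone genes had the highest median of the lists, 1.62 over 14 tested members, of which 6 rose and none fell. These transcripts are short and nearly identical between copies, and most lack poly-A tails, so single members are uncertain and poly-A selection reads only some of their RNA. HIST1H1C, the linker histone H1.2, had 27.0 and 17.3 CPM with the SMARCA4 knockdown, against 4.16 and 4.18 CPM with the control knockdown (log2 fold change 2.34, SE 0.284, adjusted p = 0.00312). HIST1H4H, a histone H4 gene, had 6.03 and 4.27 CPM with the SMARCA4 knockdown, against 0.328 and 0.356 CPM with the control knockdown (log2 fold change 3.81, SE 0.483, adjusted p = 0.00365). HIST1H2BK, a histone H2B gene, had 89.0 and 56.1 CPM with the SMARCA4 knockdown, against 22.8 and 16.8 CPM with the control knockdown (log2 fold change 1.81, SE 0.239, adjusted p = 0.00375). The groups were well apart in each, and HIST1H1C and HIST1H4H were called whichever library was left out. HIST1H2AC (2.67), HIST1H2AE (2.09) and HIST1H2BJ (1.82) were the other called members. The list kept 3 calls without knockdown replicate 1, 3 without control replicate 1 and 2 without control replicate 2.

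Lysosome genes, many of which are controlled by TFEB-family factors, were nearly all higher by a small amount. Of 23 tested, 22 had a positive log2 fold change, with a median of 0.55, and 3 were called up. SQSTM1, the autophagy receptor p62, had 786 and 272 CPM with the SMARCA4 knockdown, against 117 and 109.9 CPM with the control knockdown (log2 fold change 2.15, SE 0.383, adjusted p = 0.0131). CTSA, the lysosomal protease cathepsin A, had 124 and 91.7 CPM with the SMARCA4 knockdown, against 20.8 and 31.7 CPM with the control knockdown (log2 fold change 1.98, SE 0.257, adjusted p = 0.00365). MCOLN1, a lysosomal calcium channel, had 45.7 and 33.6 CPM with the SMARCA4 knockdown, against 18.1 and 11.7 CPM with the control knockdown (log2 fold change 1.35, SE 0.269, adjusted p = 0.0217). The knockdown libraries were above both controls in all 3, by far the most in replicate 1 for SQSTM1. Among members that did not pass, LAMP1 had 242 and 182 against 156 and 126 CPM (0.53), CTSD 266 and 249 against 189 and 151 CPM (0.55) and CTSB 76.1 and 85.1 against 56.0 and 50.0 CPM (0.55). CTSA was the one call left without knockdown replicate 1, without control replicate 1 and without control replicate 2.

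The 250 bases before CTSA and MCOLN1 are shown because each held the E-box CACGTG more than once, marked in capitals (RefSeq, GRCh38.p14; chr20:45891085-45891334, plus strand; chr19:7522374-7522623, plus strand).
CTSA: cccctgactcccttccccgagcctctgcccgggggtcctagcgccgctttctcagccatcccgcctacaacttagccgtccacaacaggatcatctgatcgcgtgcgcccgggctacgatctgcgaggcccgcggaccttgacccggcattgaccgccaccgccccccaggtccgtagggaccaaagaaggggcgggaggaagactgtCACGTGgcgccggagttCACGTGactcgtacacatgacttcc
MCOLN1: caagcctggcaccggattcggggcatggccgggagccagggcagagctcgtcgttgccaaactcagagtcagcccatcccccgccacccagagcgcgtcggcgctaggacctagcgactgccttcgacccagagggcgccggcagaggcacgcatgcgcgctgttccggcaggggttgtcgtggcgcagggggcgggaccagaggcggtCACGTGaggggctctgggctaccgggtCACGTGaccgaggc
CACGTG lay 42 and 25 bases before the start of CTSA and 41 and 14 bases before that of MCOLN1. It was found in 7 of 15 lysosome gene promoters in this window, against 9.02% of all 10795, 9.28% of those of genes that rose and 4.72% of those of genes that fell. The other lysosome holders, ATP6V0D1, CTSD, GAA, LAMP1 and NEU1, were not called, and the called SQSTM1 held no match.

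Metallothioneins, small metal-binding proteins of nearly identical sequence, gave 2 calls among 5 tested. MT2A had 113 and 125 CPM with the SMARCA4 knockdown, against 57.0 and 43.4 CPM with the control knockdown (log2 fold change 1.19, SE 0.202, adjusted p = 0.0105), and MT1E had 75.5 and 110.5 against 38.1 and 35.3 CPM (1.29). Both knockdown libraries were above both controls in MT2A, with less spread within the groups than between them. MT2A kept its call without each library except control replicate 2, whereas MT1E lost it without any of the 4.

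Cholesterol synthesis genes, which SREBP2 switches on when sterols are low, were mostly lower. Of 24 tested 20 had a negative log2 fold change, 3 fell and none rose, with a median of -0.69. MSMO1, a sterol methyl oxidase, had 37.6 and 50.0 CPM with the SMARCA4 knockdown, against 90.5 and 90.8 CPM with the control knockdown (log2 fold change -1.10, SE 0.24, adjusted p = 0.031). INSIG1, the sterol-regulated anchor of SREBP, had 28.8 and 60.8 CPM with the SMARCA4 knockdown, against 112 and 116 CPM with the control knockdown (log2 fold change -1.39, SE 0.345, adjusted p = 0.0464). TM7SF2, a sterol reductase, had 4.26 and 5.19 CPM with the SMARCA4 knockdown, against 12.8 and 17.9 CPM with the control knockdown (log2 fold change -1.75, SE 0.318, adjusted p = 0.0144). All knockdown values lay below all control values in these genes, and replicate 1 was the lower of each pair. HMGCS1, a synthase early in the pathway, had 91.0 and 221 against 318 and 353 CPM (-1.15, adjusted p = 0.0899); its groups did not overlap and it did not pass. The list depended on replicate 1 of the knockdown: without it no member was called and the median was -0.23, and without replicate 2 of the knockdown 13 of 24 fell. TM7SF2 was the one call without control replicate 1, and none was left without control replicate 2.

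DNA replication genes were mostly lower by a small amount. Of 34 tested 31 had a negative log2 fold change, with a median of -0.36, and 1 was called. PCNA, the sliding clamp, had 219 and 295 against 396 and 332 CPM (-0.56, adjusted p = 0.12), and MCM2, a helicase subunit, had 358 and 446 against 529 and 468 CPM (-0.36, adjusted p = 0.152). Without knockdown replicate 1 the median of the list was -0.08, and CLSPN, a replication checkpoint mediator, was the one call, upwards. Without either control library none was called. Of 30 mitosis genes and of 25 cyclins, CDKs and CDK inhibitors none was called, with medians of -0.17 and -0.16.

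None of 19 p53 targets was called, with a median of 0.19, and the 2 replicate numbers differed widely in them. CDKN1A, the p21 inhibitor of CDKs, had 138 and 4.69 CPM with the SMARCA4 knockdown, against 160.1 and 8.00 CPM with the control knockdown. MDM2, the p53 ubiquitin ligase, had 243 and 61.8 CPM with the SMARCA4 knockdown, against 194 and 47.2 CPM with the control knockdown. Replicate 1 was the higher in both groups in both genes, so the groups overlapped (log2 fold change -0.31, SE 1.75, adjusted p = 0.945 for CDKN1A). Leaving out knockdown replicate 1 put the median of the list at -0.62, and leaving out control replicate 1 put it at 0.53.

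Of 54 tested developmental transcription factors, 35 had a negative log2 fold change, as did 7382 of all 14601 genes tested. Of these factors 4 fell and none rose, with a median of -0.28. FOXA1, a pioneer factor of endoderm, had 18.7 and 33.8 CPM with the SMARCA4 knockdown, against 67.9 and 66.2 CPM with the control knockdown (log2 fold change -1.40, SE 0.314, adjusted p = 0.0341). TBX5, a T-box factor of heart and forelimb, had 25.9 and 19.2 CPM with the SMARCA4 knockdown, against 50.6 and 42.1 CPM with the control knockdown (log2 fold change -1.10, SE 0.218, adjusted p = 0.0216). EYA1, a cofactor of homeobox proteins, had 2.97 and 2.85 against 12.4 and 5.60 CPM (-1.67), and FOXP2, a forkhead factor of brain and lung, had 1.39 and 1.42 against 5.80 and 5.07 CPM (-1.996). The groups did not overlap in these 4 genes, yet none was called without knockdown replicate 1 or without control replicate 1, and only EYA1 without control replicate 2.

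Of 17 tested neuronal genes 3 fell and 1 rose, with a median of -0.38. Besides GRIK2 and CNTN6, given above, TUBB3, the neuronal beta-tubulin, had 55.7 and 82.8 CPM with the SMARCA4 knockdown, against 171 and 162 CPM with the control knockdown (log2 fold change -1.31, SE 0.254, adjusted p = 0.02), and GRIA2, an AMPA receptor subunit, had 0.0927 and 0.335 against 0.875 and 1.51 CPM (-2.47). TUBB3 was lower in both knockdown libraries; without knockdown replicate 1 or either control library the calls were CNTN6 and GRIK2. Of 12 tested blood lineage genes 2 fell, KIT, the stem cell factor receptor, at 0.927 and 0.418 against 3.28 and 3.47 CPM (-2.39), and TAL1, a blood transcription factor, at 2.32 and 1.59 against 6.34 and 4.71 CPM (-1.55). TAL1 lost its call without knockdown replicate 1 or either control library, and KIT without any of the 4.

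**Figure D4:**
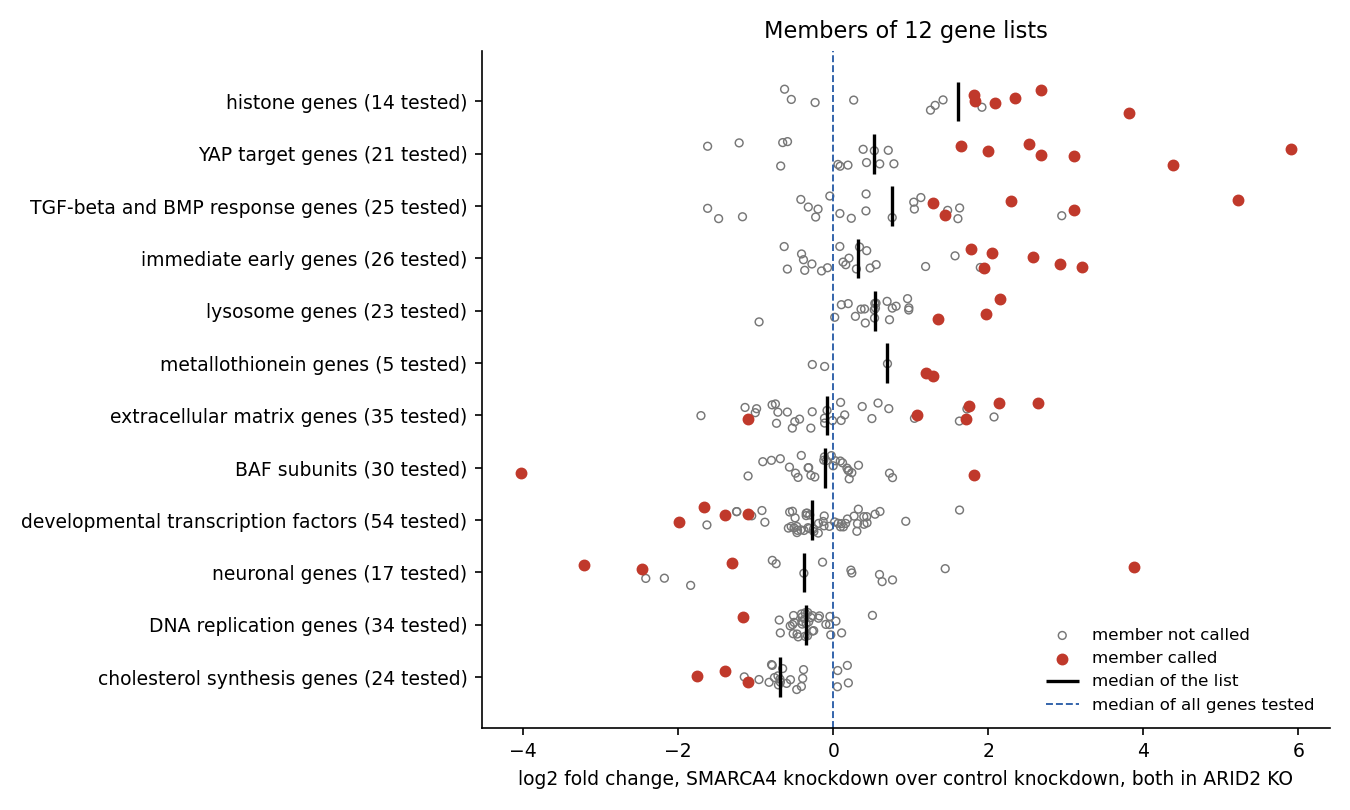
Log2 fold changes, SMARCA4 knockdown over control knockdown in ARID2 KO, of the tested members of 12 gene lists; filled points are called members, black bars the list medians and the dashed line the median of all genes tested. Histone genes have the highest median, 1.62, and cholesterol synthesis genes the lowest, -0.69.

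The remaining lists gave at most 1 call each. None of 30 HOX genes, 18 other chromatin remodellers, 28 hypoxia and glycolysis genes, 30 oxidative phosphorylation genes, 20 endoplasmic reticulum stress genes, 27 apoptosis regulators, 20 integrin and cadherin genes, 14 class I antigen processing genes, 12 mesenchymal regulators or 11 NF-kB and chemokine genes passed. Single calls up were EZH1 among 16 Polycomb subunits (1.00), PDLIM5 among 29 contractile genes controlled by SRF (1.02), HEY1, a NOTCH target, among 20 NOTCH pathway genes (2.30), DTX3L among 24 interferon-stimulated genes (1.28), GDF3 among 13 pluripotency-linked genes and SPRY4, at least 5.68-fold higher against a floor of 3 counts per library, among 18 ERK feedback genes. Single calls down were FZD4 among 33 WNT pathway genes, STC2 among 32 integrated stress response genes (-1.04), CLDN1 among 17 epithelial genes and RPL10 among 35 ribosomal protein genes (-1.79), the last from a gene with many processed copies. GDF3, FZD4 and CLDN1 remained called without any 1 of the 4 libraries. EZH1, HEY1, DTX3L, SPRY4, STC2 and RPL10 lost their call without knockdown replicate 1 and without either control library, EZH1 also without knockdown replicate 2, and PDLIM5 without replicate 1 of either group. Over all alternatives the log2 fold change of RPL10 lay between -2.80 and -1.18, and the fitted one of SPRY4, which depends on the prior count, between 2.25 and 7.47.

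The response was then set beside loss of SMARCA4 in cells with ARID2, the SMARCA4 KO against WT, both with the control knockdown. No library is shared by the 2 comparisons, but one is a knockdown and the other a knockout. SMARCA4 KO against WT called 487 genes up (3.34%) and 402 down (2.75%). Of the 248 genes that rose in ARID2 KO 91 also rose in the SMARCA4 KO, 36.7% of the first list and 18.7% of the second, and 3 fell there. Of the 173 that fell 75 also fell, 43.4% of the first list and 18.7% of the second, and 2 rose. Signs were shared by 218 of 248 and 152 of 173. Across the 14601 genes the log2 fold changes had a Pearson correlation of 0.42 and a Spearman correlation of 0.39, as a description over genes of the same table, which are not independent. The median change of the genes that rose was 1.75 with the knockdown in ARID2 KO and 0.87 in the SMARCA4 KO, and that of the genes that fell -1.53 and -0.90, a contrast that the choice of called genes favours.

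The separately made table of knockout clones gave a further set of values. There SMARCA4 KO clone 2878-4 called 968 genes up (5.99%) and 854 down (5.28%), and clone 2878-6 called 893 up (5.53%) and 762 down (4.72%), each with 3 libraries against 3 of WT. Of the genes that rose with the knockdown in ARID2 KO, 89 rose in clone 2878-4 and 97 in clone 2878-6, which is 35.9% and 39.1% of the list and 9.19% and 10.9% of the clones' lists; 12 fell in clone 2878-4 and 8 in clone 2878-6. Of those that fell, 76 fell in each clone, 43.9% of the list and 8.9% and 9.97% of the clones' lists, and 5 rose in each. CNTN6 rose in both clones, by 6.08 and 7.04 on the log2 scale, and MME fell, with changes of -7.87 and -7.49. For IRX6 the clones had -1.32 and 0.27, beside 3.69 with the knockdown in ARID2 KO, and for HIST1H1C they had -0.07 and 0.33, beside 2.34. These values come from separately normalized tables, and their difference was not tested. Within the 12 double-loss libraries, the test of the difference from the SMARCA4 KO response, given below, called neither IRX6 nor HIST1H1C.

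WT cells with both knockdowns, where more SMARCA4 mRNA was left, gave 43 genes up (0.295%) and 39 down (0.267%) against WT with the control knockdown. Of these, 20 of the 43 and 6 of the 39 were called in the same direction in ARID2 KO, 46.5% and 15.4% of those lists and 8.06% and 3.47% of the genes called in ARID2 KO. The signs were shared by 214 of the 248 genes that rose and 165 of the 173 that fell, and the correlation across genes was 0.469 (Spearman 0.463). In the test of the difference between these 2 responses 0 genes passed by edgeR's quasi-likelihood test, with 1019 genes at an unadjusted p of at most 0.05; DESeq2 called 25 higher and 31 lower in ARID2 KO, and without knockdown replicate 2 edgeR called 52 higher and 51 lower. An ARID2 knockdown in SMARCA4 KO cells, the reciprocal order, called 3 genes up and 0 down (900 genes at an unadjusted p of at most 0.05). ARID2 itself was thus not called lower, so these counts do not show what a joint loss in that order does. For CNTN6 the log2 fold change of this ARID2 knockdown was 0.54 and for ITM2A 0.74, between groups that both carried the SMARCA4 knockout.

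The difference between the response in ARID2 KO and the response to the SMARCA4 KO was tested directly. It was higher in ARID2 KO for 73 genes (0.5%) and lower for 82 (0.562%), but the counts without single libraries lay between 31 and 165 and between 30 and 151. The difference was called mostly in genes that the SMARCA4 KO changed: 65 of the 73 and 61 of the 82 were called in SMARCA4 KO against WT, and 20 and 18 with the knockdown in ARID2 KO. The medians were 0.092 with the knockdown in ARID2 KO and -3.91 in the SMARCA4 KO for the 73, and -0.36 and 2.28 for the 82. A called difference needs a change in at least 1 of the 2 responses, so the choice of genes favours these counts and medians. Both ARID2 KO groups were under 1 CPM in 10 of the 73 and 16 of the 82.

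The genes below set a knockdown in ARID2 KO beside a knockout in cells with ARID2, so the state of ARID2 and the kind of loss cannot be told apart. None of them passed edgeR's test of the difference from the response to both knockdowns in WT, given above. Some genes fell in both settings and less in ARID2 KO. ITM2A, given above at 183 and 150.2 CPM with the knockdown in ARID2 KO, had 4.62 and 4.83 CPM in the SMARCA4 KO and 432 and 449 CPM in WT with the control knockdown. Its log2 fold change was -2.05 in ARID2 KO and -6.59 in the SMARCA4 KO, a difference of 4.54 (SE 0.255, adjusted p = 1.01e-05). MET, the hepatocyte growth factor receptor, had 82.4 and 63.3 CPM with the SMARCA4 knockdown, against 153 and 194 CPM with the control knockdown, and 1.43 and 0.86 CPM in the SMARCA4 KO against 96.5 and 103 CPM in WT (difference of the log2 fold changes 5.14, adjusted p = 0.000228). Both genes were nearly silent in the SMARCA4 KO and remained expressed with the knockdown in ARID2 KO. KCNK2 (difference 3.91, adjusted p = 0.00306), CLDN1 (3.22, adjusted p = 0.0208) and FOXA1 (2.42, adjusted p = 0.0267) showed the same order. In the other direction CNTN6 (-3.51, adjusted p = 0.0295) and GDF3 (-3.25, adjusted p = 0.00441) rose in both settings and less in ARID2 KO.

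In further genes the responses had opposite signs. NSG1, a neuronal vesicle protein gene, rose to 59.1 and 57.4 CPM with the knockdown, against 20.4 and 22.9 CPM with the control knockdown in ARID2 KO, and had 15.1 and 12.2 CPM in the SMARCA4 KO against 67.0 and 63.2 CPM in WT. The difference was 3.66 (SE 0.248, adjusted p = 3.8e-05). S100A6, a calcium-binding protein gene, had 27.7 and 7.45 CPM with the SMARCA4 knockdown, against 1.64 and 1.87 CPM with the control knockdown, and 8.34 and 11.4 CPM in the SMARCA4 KO against 17.1 and 20.8 CPM in WT (difference 4.22, adjusted p = 0.0265). With the control knockdown, NSG1 and S100A6 stood lower in ARID2 KO than in WT. The same 2 ARID2 KO control libraries enter this comparison and the rise with the SMARCA4 knockdown, so the 2 are not independent. With the SMARCA4 knockdown NSG1 lay closer to WT, while S100A6 lay above WT in replicate 1 and below it in replicate 2. Over the alternatives run, the log2 fold change of S100A6 with the SMARCA4 knockdown lay between 2.07 and 3.90. PAK6 (6.16, adjusted p = 0.000179), DPYSL3 (4.40, adjusted p = 0.000944) and MT2A (1.80, adjusted p = 0.0124) also had higher responses in ARID2 KO.

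H6PD and GLO1 fell with the knockdown in ARID2 KO and had log2 fold changes of -0.11 and -0.02 in the SMARCA4 KO. H6PD had 67.6 and 76.5 CPM in the SMARCA4 KO and 56.3 and 94.0 CPM in WT, beside its 17.5 and 21.4 CPM with the knockdown (difference -1.86, adjusted p = 0.0267). GLO1 had 418 and 423 CPM in the SMARCA4 KO and 419 and 410.2 CPM in WT (difference -1.09, adjusted p = 0.0104). TM7SF2 (-2.18, adjusted p = 0.0395), TAL1 (-2.84, adjusted p = 0.00291) and SLITRK1, a synaptic adhesion gene (-3.85, adjusted p = 0.0146), were lower as well. SLITRK1 had 1.58 and 2.51 CPM with the SMARCA4 knockdown, against 10.3 and 10.3 CPM with the control knockdown. It had 0.383 and 0.165 CPM in WT, below the ARID2 KO control, whose libraries enter both comparisons.

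**Figure D5:**
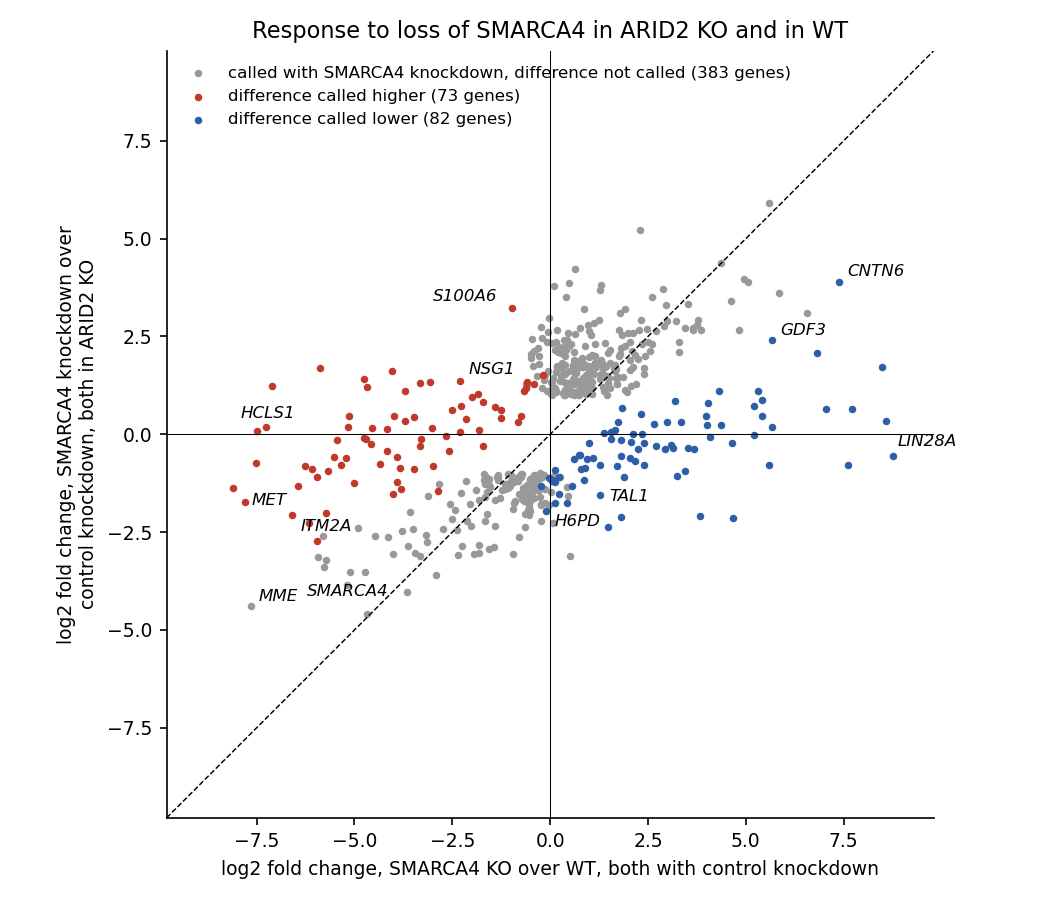
Log2 fold change for SMARCA4 KO over WT (both with control knockdown, horizontal) against that for SMARCA4 knockdown over control knockdown in ARID2 KO (vertical); the dashed line marks equal responses. The 73 genes with a called higher difference (red) lie mostly left of the vertical axis and the 82 with a lower one (blue) mostly right of it, and 383 other genes called with the knockdown are grey. The choice of genes by their difference favours this split.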

How the data were processed

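The authors deposited expected counts per gene: 1 table of 12 double-loss libraries, 6 groups of 2, and another of 75 knockout libraries. Values are whole numbers with a lowest value of 1, so rounding changed nothing. Per the submitters' processing notes, Trimmomatic, Bowtie, Picard and DESeq2 were used with builds GRCh37 and hg19; the sources used here do not name the counting tool, annotation or strand setting. A further 3 columns matched no labelled sample and were not used.

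CPM is a count divided by the library's total and multiplied by 1000000. Of 35438 genes 14601 passed filterByExpr (16159 in the knockout table). TMM factors and edgeR 4.0.16 quasi-likelihood tests (R 4.3.3) were fitted to all 12 libraries by group, with Benjamini-Hochberg adjustment; genes were called at an adjusted p of at most 0.05 and a log2 fold change of at least 1 in size. Standard errors are on the log2 scale. On simulated data for the main comparison, 100 of 198 changed genes reached the adjusted p, as did 4 unchanged genes. These were among 14513 genes tested, changed ones included. The simulation gave every gene and group the same spread. It did not hold the wider spread between the 2 knockdown libraries, so its false calls do not carry over to the data. limma 3.58.1 (voom), DESeq2 1.42.0, other filters, the replicate block and leaving out each library were alternatives. Folds against groups at the lowest value used a floor of 3 counts per library. Intervals cover counting error only and take the deposited values as counts with no offset.

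Named genes were the 15 strongest called in each direction with at least 5 CPM and no overlap, all BAF subunits, up to 4 called members per list and the 5 strongest differences; others, including the genes called without each library and list members that did not pass, were chosen after their values were seen. Members and lists were chosen with earlier results of these data known. Some genes that the rule selects are not reported here. Promoters came from the RefSeq table.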

Additional observations from a re-analysis of the deposited data

Results flagged for a closer look

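The response to the SMARCA4 knockdown in ARID2 KO and the response to the SMARCA4 KO differed, by edgeR's quasi-likelihood test of the difference itself with Benjamini-Hochberg adjustment, in 73 genes that were higher and 82 that were lower in ARID2 KO. Among genes of at least 5 CPM in 1 of the 4 groups, the large positive differences on the log2 scale included HCLS1 at 7.59, HRASLS5 at 7.57, GALNT5 at 7.45 and COL11A1 at 6.76. The largest negative ones were LIN28A at -9.31, AQP4 at -8.4, PDE3A at -8.23, SCN3A at -7.07 and LRRC31 at -6.82. HCLS1, a blood lineage gene, had 0.0927 and 0.335 CPM with the SMARCA4 knockdown, against 0.328 and 0.0889 CPM with the control knockdown in ARID2 KO, and 0.212 and 0.265 CPM in the SMARCA4 KO against 47.8 and 38.1 CPM in WT. Both ARID2 KO groups of HCLS1 were thus near the lowest deposited value, where no change could be measured. LIN28A, an RNA-binding protein of stem cells, had 1.39 and 2.09 CPM with the SMARCA4 knockdown, against 2.08 and 2.85 CPM with the control knockdown in ARID2 KO, and 105 and 94.8 CPM in the SMARCA4 KO against 0.255 and 0.165 CPM in WT. The ARID2 KO control was under 1 CPM in 12 of the 73 genes and 21 of the 82, and both ARID2 KO groups were under 1 CPM in 10 and 16 of them.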

How the results depend on the processing

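Of 73 called genes selected for naming, 16 lost their call in none of the alternatives run and 57 in at least 1. Of the 16, 15 were tested in all 12 alternatives and HIST1H4H in 11. Among the 73, 0 reversed direction, which is no check of the calls. The groups of all called genes did not overlap, so leaving out a library could hardly change a sign. The 248 genes that rose and 173 that fell became 353 and 271 by DESeq2, 159 and 136 by limma-voom, 189 and 108 with no filter on low counts, 355 and 305 with no fold threshold and 74 and 67 when only the 4 libraries were fitted. Leaving out 1 library gave 23 to 522 that rose and 40 to 342 that fell; this leaves 1 library in an arm, which is assumed to vary like the other groups. The difference from the SMARCA4 KO response, 73 higher and 82 lower, became 156 and 180 by DESeq2, and 31 to 165 and 30 to 151 without single libraries. The difference from the response to both knockdowns, 0 and 0, became 25 and 31 by DESeq2 and 0 to 52 and 0 to 51 without single libraries. The cause was not tested. The other alternatives (DESeq2 size factors, a stricter filter, 1 subtracted from each value) stayed within 1.5 times of each count.

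With the replicate number as a block (replicate block), 407 rose and 393 fell, including all 248 and 173; BCL11B, ID1, SMAD6 and HMGCS1, which did not pass without the block, were among them. With it the difference counts became 166 and 220, with 0 and 0 for the difference from both knockdowns. The labels do not say that a number marks a shared batch; deviations of same-numbered libraries correlated at 0.131 between the SMARCA4 knockdown and its control, and at 0.0909 to 0.527 over all pairs of groups.

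With 2 libraries a group and 9144150 to 11950602 counts, small changes and genes near the lowest deposited value were poorly resolved.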

Other observations

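The genes of a secreted lipid carrier and a metabolic enzyme, both outside the lists, also rose with the SMARCA4 knockdown in ARID2 KO. They were chosen after their values were seen. APOE, the lipid carrier apolipoprotein E, had 108 and 30.1 CPM with the SMARCA4 knockdown, against 9.62 and 11.0 CPM with the control knockdown (log2 fold change 2.67, SE 0.449, adjusted p = 0.0102, edgeR's quasi-likelihood test, Benjamini-Hochberg), while the SMARCA4 KO had 52.9 and 51.5 CPM against 1.40 and 2.23 CPM in WT. GLUL, glutamine synthetase, had 306 and 231 CPM with the SMARCA4 knockdown, against 121 and 106 CPM with the control knockdown (log2 fold change 1.18, SE 0.234, adjusted p = 0.0216). The groups were apart in both genes, and APOE differed more between its knockdown replicates.

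The replicate number itself separated libraries in some genes. With the number as a term over all 12 libraries, 56 genes were higher in replicate 1 (0.384% of those tested) and 121 in replicate 2 (0.829%). Of these, 3 rose and 3 fell with the SMARCA4 knockdown, as did 1.7% and 1.18% of all genes tested. ANKRD1, given above as a called YAP target, was among those higher in replicate 1 (log2 fold change -1.37, replicate 2 over replicate 1). CDKN1A had 138 CPM in replicate 1 and 4.69 CPM in replicate 2 of the SMARCA4 knockdown in ARID2 KO, and 160.1 and 8.00 CPM in its control. In the SMARCA4 KO it had 38.3 and 8.26 CPM with the ARID2 knockdown and 34.9 and 5.89 CPM with the control knockdown, and in WT 143 and 16.3 CPM with both knockdowns and 168.5 and 20.7 CPM with the control knockdown. FDXR, a ferredoxin reductase, averaged 58.6 CPM over the replicate 1 libraries and 20.4 CPM over the replicate 2 libraries.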
